A study of Homo sapiens with 6 samples.

Results

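The genes described here are the 6 peroxiredoxins (PRDX1 to PRDX6), the 2 thioredoxins (TXN and TXN2) and 2 thioredoxin reductases (TXNRD1 and TXNRD2). They were taken by symbol from the deposited expression table, which held all 10 among its 30676 genes. The RNA came from HCT116, an established human colorectal cancer cell line, labelled WT. Both groups were kept at 1% oxygen for 24 hours. The GIA group of 3 libraries received GIA, named in the study's title as genistein isoflavonoid alkaloids, at 10 µM. The control group of 3 libraries received DMSO at 0.1%, and whether the GIA cells received the same amount of solvent is not stated. There was no normoxic group, so the comparison concerns the compound under low oxygen and not the response to low oxygen. Separate cultures are not named for the 3 libraries of either group, so the p-values reflect only how these libraries vary, which could be technical.

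Peroxiredoxins are abundant thiol peroxidases that reduce hydrogen peroxide and other peroxides with a reactive cysteine. In all of them but PRDX4 and PRDX6 the oxidised cysteine is restored mainly through thioredoxin. Thioredoxin is itself kept reduced by thioredoxin reductase at the cost of NADPH. The system runs in parallel in the cytosol and nucleus (PRDX1, PRDX2, TXN and TXNRD1) and in mitochondria (PRDX3, TXN2 and TXNRD2). PRDX4 works in the endoplasmic reticulum, PRDX5 is found in mitochondria, peroxisomes and cytosol, and PRDX6 is restored through glutathione. TXNRD1, TXN and PRDX1 are known targets of NRF2, the transcription factor of the antioxidant response.

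The catalytic codons show what the members share and where they part. The windows below are 30 coding bases each (10 codons), read 5′ to 3′ from GENCODE release 29 transcripts on GRCh38. In the peroxiredoxins the capitals mark the codon of the cysteine that attacks the peroxide, found as the last residue of a pattern of proline, any 3 residues, threonine or serine, any 2 residues and cysteine. Each of the 6 coding sequences held this pattern 1 time.
PRDX1: cctcttgacttcacctttgtgTGCcccacg
PRDX2: cctctggacttcacttttgtgTGCcccacc
PRDX3: cctttggatttcacctttgtgTGTcctaca
PRDX4: ccacttgatttcacatttgtgTGTccaact
PRDX5: cctggggccttcacccctggaTGTtccaag
PRDX6: cctcgggactttaccccagtgTGCaccaca
The capital codon is codon 52 in PRDX1 (exon 3; chr1:45515752-45515781, minus strand), 51 in PRDX2 (exon 3; chr19:12801014-12801043, minus) and 47 in PRDX6 (exon 2; chr1:173481348-173481377, plus). It is codon 100 in PRDX5 (exon 2; chr11:64319839-64319868, plus). In PRDX3 (codon 108; chr10:119173854-119174461, minus) and PRDX4 (codon 124; chrX:23671636-23675008, plus) the window is split by an intron, between exons 3 and 4 and exons 2 and 3.

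In the thioredoxins the capitals mark the codons of the cysteine pair that is oxidised and reduced in each cycle. In the reductases they mark a TGA codon inside the reading frame, which is read as selenocysteine and not as a stop.
TXN: gccacgtggTGTgggcctTGCaaaatgatc
TXN2: gcacagtggTGTggacccTGCaagatcctg
TXNRD1: agcatcctccaggctggctgcTGAggttaa
TXNRD2: gaccccacggtgacaggctgcTGAgggtaa
The pair lies at codons 32 and 35 of TXN (exon 2; chr9:110251373-110251402, minus strand) and at codons 90 and 93 of TXN2 (exons 2 and 3; chr22:36476832-36480579, minus, with an intron inside the window). The TGA is codon 498 of TXNRD1 (exon 15; chr12:104348392-104348421, plus) and codon 523 of TXNRD2 (exon 17; chr22:19877105-19877134, minus), in both the last codon but 1 before the stop. TXN is the shortest coding sequence of the 10, with 105 codons before the stop, and TXNRD2 the longest, with 524. The longest run of bases shared by the transcripts of any pair of members was 17, between PRDX1 and PRDX4, and all other pairs shared at most 14.

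PRDX1 had the highest mRNA level of the 10 genes and TXNRD2 the lowest. Levels are FPKM (fragment number divided by gene length and library size), so they can be compared between genes. Averaged over the 6 libraries, PRDX1 had 443.0 FPKM, more than 99.7% of the 13721 genes with a mean of at least 0.5 FPKM. PRDX6 (221.8 FPKM) and TXN (214.1) came next and overlapped across libraries. PRDX2 (138.8), TXNRD1 (131.5) and PRDX5 (115.1) followed, and neighbours in this group overlapped as well. PRDX4 (78.8) and PRDX3 (75.2) overlapped each other and lay below every library of PRDX5. The mitochondrial thioredoxin TXN2 (24.9) and reductase TXNRD2 (6.26) were lowest, and each was apart from its neighbours in every library. TXNRD2 exceeded 55.3% of the tested genes.

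**Figure D1:**
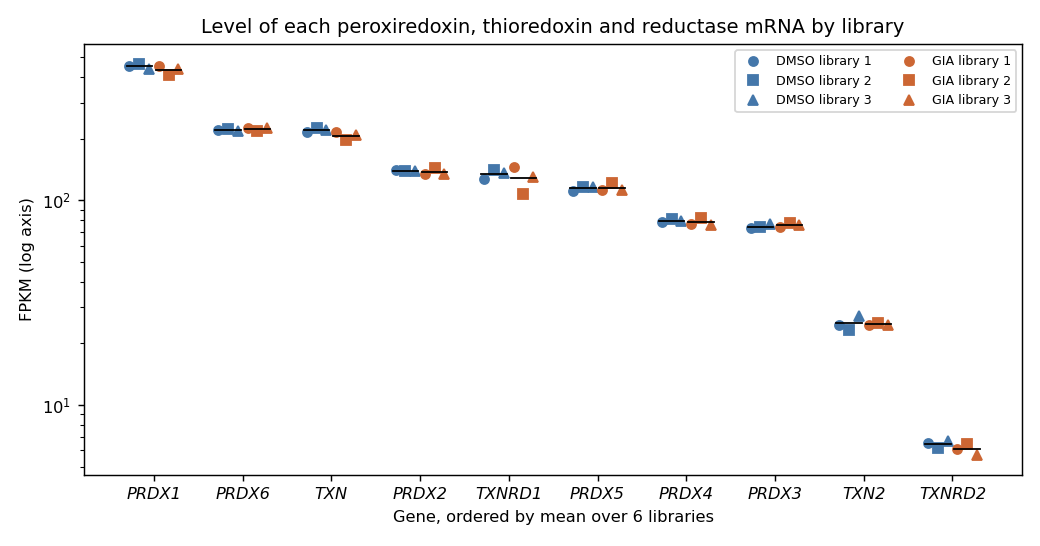
FPKM of the 10 genes (log axis) in each of the 3 DMSO (blue) and 3 GIA (orange) libraries, with the mean of each group as a black line. PRDX1 is highest and TXNRD2 lowest in every library, and the DMSO and GIA points of each gene overlap.

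With GIA no member passed the test in either direction, and 9 had intervals within 1.2-fold. In the quasi-likelihood test of edgeR, 0 of 13721 genes passed a Benjamini-Hochberg adjusted p of 0.05 (0% higher, 0% lower), so the 0 of 10 members equals the background. At an unadjusted p under 0.05 there were 0 members, against 4.59% of all genes (630). DESeq2 and limma on log2(FPKM + 0.5) also called 0 genes, with 4.74% and 4.88% of genes at an unadjusted p under 0.05 and 0 members among them. In edgeR the smallest adjusted p of any member was 0.875, which was also the smallest of any gene in that test. Log2 fold changes, GIA over DMSO, were positive for 3 members and negative for 7, with a median of -0.02, while over all tested genes the median was 0.00038 and 50.2% were positive. The GIA and DMSO libraries overlapped for all 10 members, where 11.2% of tested genes did not overlap. The 95% interval of the fold change stayed within 1.2-fold either way for 9 members and reached 1.23-fold for the remaining one, TXNRD1. Of all tested genes 55.9% had an interval within 1.2-fold. That share covers genes of all levels from a mean of 0.5 FPKM, and genes at the members' level were not compared. Each interval covers 1 gene, with no adjustment over genes.

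Among the cytosolic peroxiredoxins, PRDX1 (ENSG00000117450, chromosome 1, 45511036 to 45521938) had 451.6, 466.3 and 439.3 FPKM in DMSO libraries 1 to 3 and 452.5, 411.4 and 436.9 in GIA libraries 1 to 3. GIA library 2 was the lowest of the 6, and the other GIA libraries lay below the highest DMSO library. By edgeR the log2 fold change of PRDX1 was -0.06 (SE 0.04), with a 95% interval of -0.16 to 0.03 and an adjusted p of 0.875. PRDX2 (ENSG00000167815, chromosome 19, 12796820 to 12801800), the second cytosolic enzyme, had 141.3, 139.0 and 138.7 FPKM under DMSO and 135.3, 143.4 and 135.1 with GIA. Here GIA library 2 was the highest of all and the other GIA libraries the lowest, so the groups crossed. PRDX2 had a log2 fold change of -0.02 (SE 0.03), with an interval of -0.09 to 0.05.

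PRDX6 (ENSG00000117592, chromosome 1, 173477330 to 173488815), which also has phospholipase activity, was the steadiest member. It had 220.2, 223.6 and 217.7 FPKM under DMSO and 225.9, 218.9 and 224.7 with GIA, so that its highest library was 1.04 times its lowest, where genes of at least 50 FPKM had a median ratio of 1.09. The log2 fold change was 0.02 (SE 0.03), and its interval reached 1.06-fold.

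The peroxiredoxins of mitochondria and the endoplasmic reticulum moved as little. PRDX3 (ENSG00000165672, chromosome 10, 119167720 to 119178812), the main mitochondrial enzyme, had 73.0, 74.0 and 76.3 FPKM under DMSO and 74.0, 77.6 and 75.9 with GIA. PRDX5 (ENSG00000126432, chromosome 11, 64318121 to 64321811) had 111.1, 116.1 and 116.5 with DMSO and 112.5, 121.5 and 112.6 with GIA. PRDX4 (ENSG00000123131, chromosome X, 23664262 to 23686397), which passes oxidising power to protein disulfide isomerases, had 78.1, 81.4 and 79.0 with DMSO and 76.9, 81.7 and 75.8 with GIA. In each of these 3 genes GIA library 2 was the highest library, while GIA libraries 1 and 3 lay within or below the DMSO range. The log2 fold changes were 0.02 (SE 0.03) for PRDX3, 0.0094 (SE 0.04) for PRDX5 and -0.03 (SE 0.04) for PRDX4. The sign of PRDX5 turned when DMSO library 1 (-0.01) or GIA library 2 (-0.02) was left out.

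The make-up of the family was likewise close between groups. The 6 peroxiredoxins together had 1081 ± 17.2 FPKM under DMSO and 1064 ± 11.6 under GIA (mean ± SD, n = 3 each). PRDX1 made up 42.0%, 42.4% and 41.2% of this sum in DMSO libraries 1 to 3 and 42.0%, 39.0% and 41.2% in GIA libraries 1 to 3. Thus 1 library, GIA library 2, had a lower PRDX1 share than the other 5. PRDX6 contributed 20.5%, 20.3% and 20.4% in DMSO libraries 1 to 3 and 21.0%, 20.8% and 21.2% in GIA libraries 1 to 3, so the groups did not overlap for this share. Over all libraries PRDX2 contributed 12.6% to 13.6%, PRDX5 10.3% to 11.5%, PRDX4 7.14% to 7.74% and PRDX3 6.73% to 7.36%. These shares are a description and were not tested.

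Thioredoxin (TXN, ENSG00000136810, chromosome 9, 110243810 to 110256507), the cytosolic electron donor, had 216.0, 225.2 and 220.6 FPKM under DMSO and 216.2, 197.2 and 209.3 with GIA. GIA libraries 2 and 3 were the lowest of the 6, but GIA library 1 lay just above DMSO library 1. Of the 10 genes TXN came nearest to an unadjusted p of 0.05, with 0.0663 by edgeR and an adjusted p of 0.875, and its interval reached from 0.88-fold to 1.01-fold. TXN2 (ENSG00000100348, chromosome 22, 36467046 to 36481640), the mitochondrial thioredoxin, had 24.5, 23.3 and 27.4 with DMSO and 24.7, 25.1 and 24.6 with GIA. Its GIA libraries agreed closely and lay inside the wider DMSO range. The log2 fold change of TXN2 was -0.02 (SE 0.06), and 0.05 without DMSO library 3. In each library TXN was 7.87 to 9.65 times as high as TXN2 per length.

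Of all members TXNRD1 (ENSG00000198431, chromosome 12, 104215779 to 104350307), the cytosolic selenoprotein reductase, varied most between libraries. It had 127.8, 140.8 and 136.8 FPKM under DMSO and 146.1, 107.7 and 130.1 with GIA. The GIA group held both the highest and the lowest library, a 1.36-fold range. The coefficient of variation over the GIA libraries was 15.1%, larger than in 97.1% of the 762 genes with a mean of at least 50 FPKM. Over the DMSO libraries it was 4.92%, larger than in 92.8% of them. The medians of these genes were 3.57% over the GIA and 1.89% over the DMSO libraries. TXNRD1 had a log2 fold change of -0.08 (SE 0.10), with an interval of -0.30 to 0.14, and 0.03 without GIA library 2. TXNRD2 (ENSG00000184470, chromosome 22, 19875517 to 19941818), the mitochondrial reductase, had 6.52, 6.20 and 6.64 with DMSO and 6.09, 6.42 and 5.69 with GIA. GIA libraries 1 and 3 were lowest, and GIA library 2 lay among those of the control. The fold change of TXNRD2 was -0.09 on the log2 scale (SE 0.05), with an interval of -0.21 to 0.03. The ratio of TXNRD1 to TXNRD2 was 19.6, 22.7 and 20.6 with DMSO and 24.0, 16.8 and 22.9 with GIA, so the GIA libraries spanned more than the DMSO range on both sides.

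**Figure D2:**
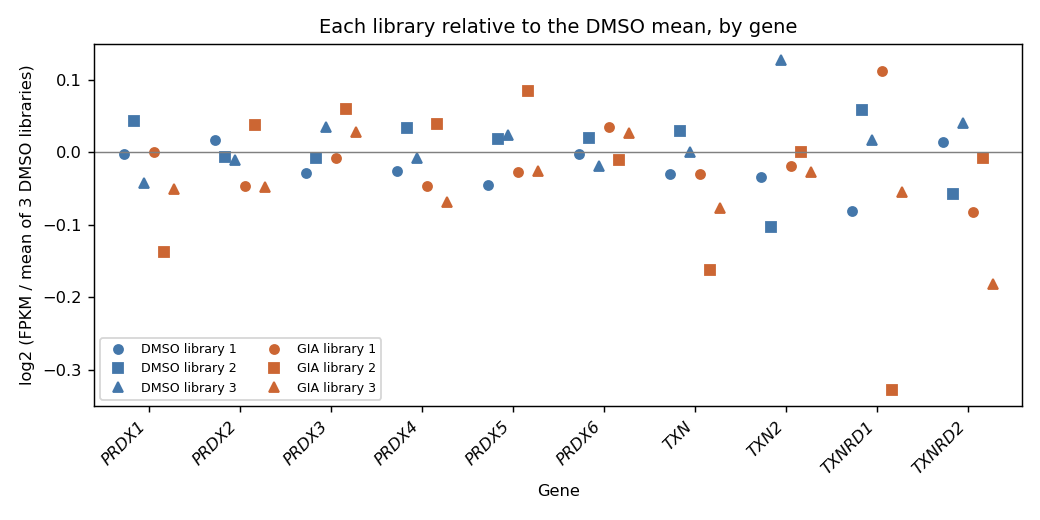
Log2 ratio of the FPKM in each library to the mean of the 3 DMSO libraries, for the 10 genes (blue: DMSO; orange: GIA; the shape gives the library number). TXNRD1 in GIA library 2 lies farthest from 0, TXN and PRDX1 are also lowest in that library, and PRDX2 to PRDX5 are highest there.

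The spread among the GIA libraries ran in both directions. GIA library 2 was lowest for TXNRD1, TXN and PRDX1 and highest for PRDX2, PRDX3, PRDX4 and PRDX5. Against the mean of the other 5 libraries it had 107.7 and 136.3 FPKM for TXNRD1 (21.0% lower), 197.2 and 217.5 for TXN (9.32% lower) and 411.4 and 449.3 for PRDX1 (8.43% lower). PRDX5 was 6.83% higher in it, and PRDX2, PRDX3 and PRDX4 were 3.98% to 4.40% higher. This library stood apart for many genes: of the 13721 tested, 23.9% were lowest and 29.6% highest in it, and of the 762 genes of at least 50 FPKM, 37.9% and 30.6%. So 7 of 10 members were at an extreme in that library, beside 53.5% of all tested genes and 68.5% of those 762 genes. TXN2 and TXNRD2, which were not at an extreme there, had under 50 FPKM and are not among the 762. The pattern was noticed in these values and was not tested. Without GIA library 2 the log2 fold changes became -0.05 for TXN, -0.02 for PRDX1, -0.04 for PRDX2, -0.06 for PRDX4 and -0.13 for TXNRD2. The TXNRD2 value had an unadjusted p of 0.0294 and an adjusted p of 0.963 by edgeR, in a comparison where 4.21% of all genes had an unadjusted p under 0.05. Without GIA library 1 they were -0.12 for TXN, -0.10 for PRDX1 and -0.19 for TXNRD1, with unadjusted p of 0.0190, 0.0419 and 0.0369 and adjusted p of 0.469 to 0.476 by edgeR. In that comparison 10.3% of all genes had an unadjusted p under 0.05. No member passed without any 1 of the 6 libraries.

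**Figure D3:**
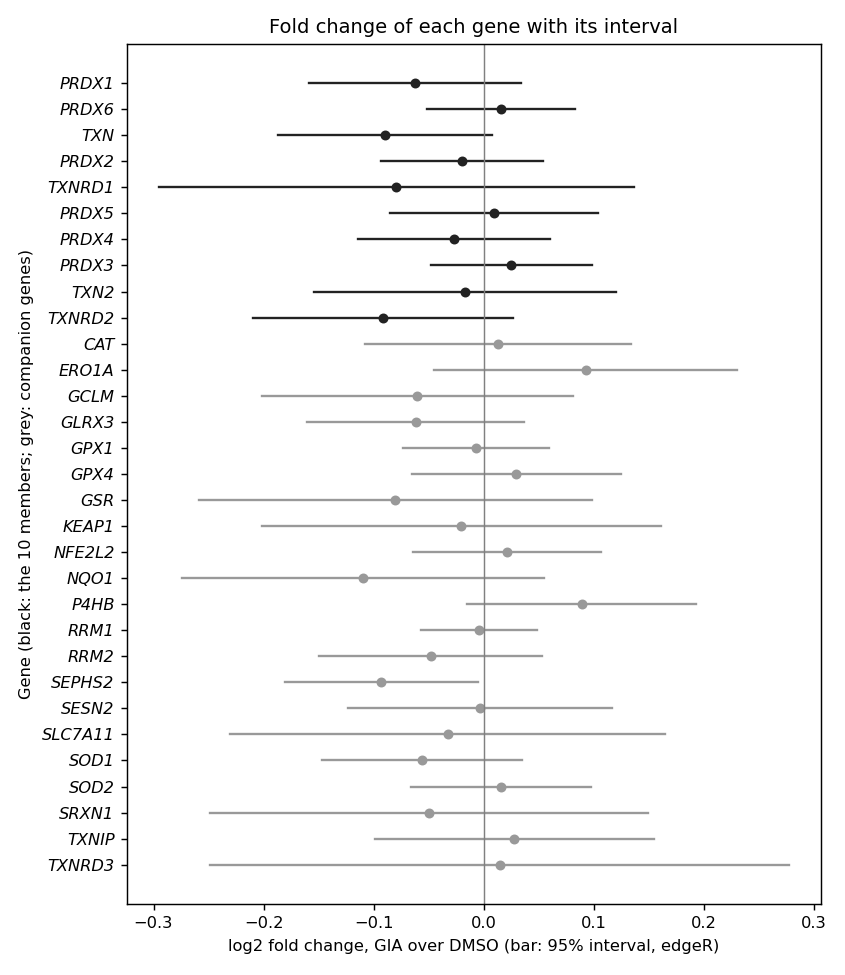
Log2 fold change, GIA over DMSO, with the 95% interval from edgeR, for the 10 genes (black) and 21 companion genes (grey). The interval of each of the 10 genes includes 0, and that of TXNRD1 is the widest of them.

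Among the members with a promoter window, TXNRD1 was the one with matches to the NRF2 motif. Promoter windows of 300 bases, from 250 before to 50 after a start, were found in RefSeq (GRCh38.p14) for 7 of the 10 members, in 11 windows. They were searched on both strands for the antioxidant response element core TGACNNNGC, whose reverse is GCNNNGTCA. It was present in 2 of the 11, both of TXNRD1, and in 13.3% of all 35116 windows. The windows of PRDX2, PRDX3, PRDX4, PRDX5, TXN and TXNRD2 did not hold these letters, and PRDX1, PRDX6 and TXN2 had no entry. The stretches around the matches are shown because TXNRD1 differed most between libraries, with the matches in capitals.
TXNRD1 upstream start, chr12:104215660-104215779, plus strand: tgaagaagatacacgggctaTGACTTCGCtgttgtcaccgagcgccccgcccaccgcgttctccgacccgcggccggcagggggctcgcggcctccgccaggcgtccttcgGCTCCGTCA
TXNRD1 downstream start, chr12:104286910-104286958, plus strand: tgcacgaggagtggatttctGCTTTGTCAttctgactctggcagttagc
The upstream stretch, with 2 matches, begins its matches 99 and 8 bases before the start at 104215779, where the deposited gene model also begins, and 1.13% of all windows held 2 or more. The downstream match begins 102 bases before the start at 104287032, inside the gene. A match of letters is a description and does not show binding.

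As for the members, no companion gene of the system passed the test. Of 90 tested genes in 8 lists, 0 rose and 0 fell by edgeR (0% of all genes tested), with 39 positive and 51 negative fold changes and a median of -0.0059 on the log2 scale, against 0.00038 for all genes. At an unadjusted p under 0.05 there were 3 of 90, beside 4.59% of all genes. The groups did not overlap for 2 of the 90 with GIA above and 5 with GIA below, beside 11.2% of all tested genes. Among the 11 tested regulators of the cycle the median was -0.03, with 3 positive and 8 negative. TXNIP, the inhibitor that binds reduced thioredoxin, had 89.2 ± 5.63 FPKM under DMSO and 91.1 ± 6.26 under GIA (mean ± SD, n = 3 each). SRXN1, which repairs over-oxidised peroxiredoxins, had 57.4 ± 1.17 and 55.5 ± 7.66. The stress-induced sestrin SESN2 had 12.6 ± 0.476 and 12.6 ± 0.620, and TXNRD3, the reductase best known from testis, 2.83 ± 0.197 and 2.86 ± 0.341.

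Genes of the glutathione arm and of the thioredoxin clients mostly overlapped between groups. The 8 glutaredoxin and glutathione genes had a median of -0.07 (2 positive, 6 negative), and 0.0028 without GIA library 2. By edgeR 1 of the 8 had an unadjusted p under 0.05, and its GIA libraries all lay below its DMSO libraries. Glutathione reductase (GSR) had 22.2 ± 1.14 FPKM under DMSO and 21.0 ± 2.28 under GIA (mean ± SD, n = 3 each), GCLM, a subunit of the enzyme that starts glutathione synthesis, 9.86 ± 0.347 and 9.46 ± 0.730, and the glutaredoxin GLRX3 19.98 ± 0.165 and 19.2 ± 0.868. The 8 enzymes reduced by thioredoxin had a median of 0.02 (5 positive). RRM1, the large subunit of ribonucleotide reductase, had 328.3 ± 1.26 and 327.8 ± 3.30, and its small subunit RRM2 24.0 ± 0.373 and 23.3 ± 1.24. No gene of these lists passed the test.

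Other enzymes that remove peroxide and superoxide were measured at similar precision. The median fold change of the 6 tested genes was 0.0027 (log2; 3 positive) and -0.02 without GIA library 3. GPX1, a selenium-dependent glutathione peroxidase, had 492.9 ± 7.74 FPKM under DMSO and 491.0 ± 8.53 under GIA (mean ± SD, n = 3 each), a mean level above that of PRDX1. GPX4, which reduces lipid peroxides, had 67.5 ± 0.815 and 69.0 ± 3.68, and catalase (CAT) 21.8 ± 0.766 and 22.0 ± 1.42. The superoxide dismutases SOD1 and SOD2 had 50.5 ± 1.67 and 9.95 ± 0.143 with DMSO and 48.6 ± 0.906 and 10.1 ± 0.377 with GIA.

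In the lists for selenocysteine and NADPH supply, on which the reductases depend, no gene passed the test. Of the 8 genes of selenoprotein synthesis 5 were negative, with a median of -0.01. SEPHS2, which makes the selenium donor, had 31.2, 32.2 and 33.0 FPKM under DMSO and 30.6, 29.8 and 30.1 with GIA. Its groups did not overlap, as for 11.2% of tested genes, and its log2 fold change was -0.09 (SE 0.04, edgeR unadjusted p = 0.0394, adjusted p = 0.875). The 15 NADPH genes had a median of -0.0029 (7 positive). The groups did not overlap for 1 of them with GIA above and 1 with GIA below.

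Many genes of NRF2 control and other NRF2 targets were lowest in the library in which TXNRD1 was lowest. Of these 17 genes 12 were lowest in GIA library 2, as were 6 of the 8 glutaredoxin and glutathione genes. Of all tested genes 23.9% were lowest there, and of those of at least 50 FPKM 37.9%. Differences between lists were not tested. NQO1, a quinone reductase, had 105.2, 106.5 and 105.5 FPKM under DMSO and 106.8, 85.6 and 101.8 with GIA. KEAP1, the inhibitor of NRF2, had 17.4, 17.9 and 17.4 with DMSO and 19.1, 15.1 and 17.9 with GIA, and the cystine transporter SLC7A11 15.4, 17.8 and 15.2 with DMSO and 17.7, 14.3 and 15.4 with GIA. In GIA library 2 the levels were below the mean of the other 5 libraries by 18.6% for NQO1 (85.6 and 105.2 FPKM) and by 18.9% for SRXN1 (47.2 and 58.3), beside 21.0% for TXNRD1. NFE2L2, which encodes NRF2, had 22.0 FPKM there, the highest of its 6 libraries, and 21.0 ± 0.565 with DMSO and 21.3 ± 0.606 under GIA (mean ± SD, n = 3 each). Over the 17 genes the median was -0.03 (log2; 6 positive, 11 negative). Leaving out GIA library 2 gave 0.03, and leaving out GIA library 1 gave -0.12.

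The 17 genes of oxidative folding in the endoplasmic reticulum, where PRDX4 acts, had a median of 0.03, with 10 positive and 7 negative. In GIA library 2, 8 of them were highest and 5 lowest, beside 29.6% and 23.9% of all tested genes. Of genes of at least 50 FPKM 30.6% were highest and 37.9% lowest there. Without that library the median was 0.0030. The disulfide isomerase P4HB had 133.6, 126.6 and 129.0 FPKM under DMSO and 129.7, 149.0 and 135.9 with GIA. ERO1A, the oxidase that reoxidises these isomerases, had 19.2, 18.6 and 18.2 with DMSO and 18.3, 22.1 and 19.4 with GIA. Their log2 fold changes were 0.09 (SE 0.05) and 0.09 (SE 0.06), and 0.04 and 0.02 without GIA library 2.

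**Figure D4:**
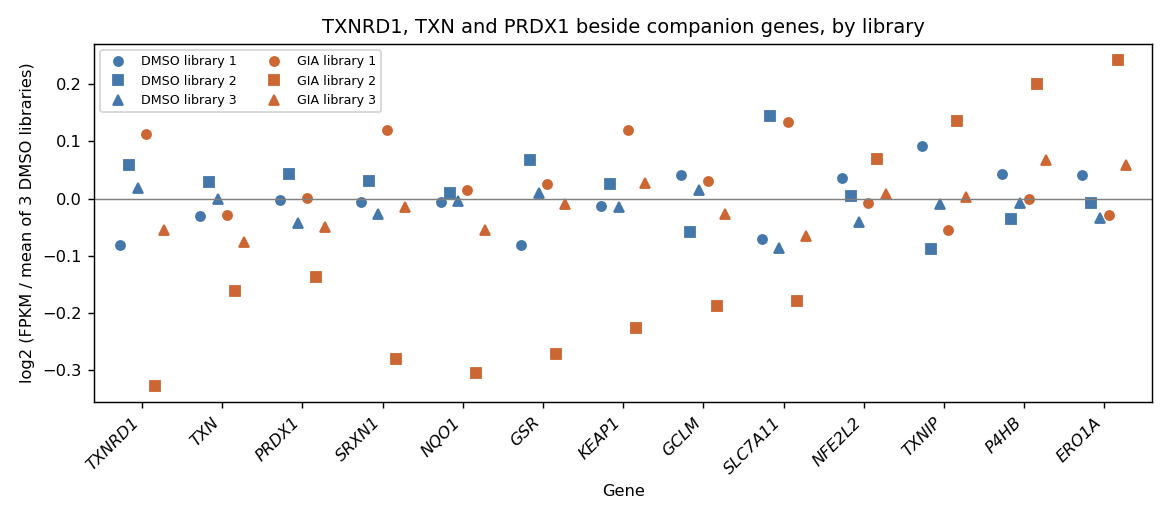
Log2 ratio of the FPKM in each library to the mean of the 3 DMSO libraries for TXNRD1, TXN, PRDX1 and 10 companion genes (blue: DMSO; orange: GIA; the shape gives the library number). GIA library 2 (orange squares) lies lowest from TXNRD1 to SLC7A11 and highest from NFE2L2 to ERO1A. Only genes at an extreme in that library are shown. PRDX6, TXN2, TXNRD2, SESN2 and RRM1, not shown, were not at an extreme in it.

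Totals were 55725249 to 67835059 estimated counts per library, all 3 GIA totals above all 3 DMSO totals, and members had 2396 to 72775 counts in a library. Epithelial keratin 18 (KRT18) had a mean of 255.5 FPKM, and 5 of 9 colorectal epithelial markers reached 0.5 FPKM, CDX2 not analysed here. The endothelial markers summed to at most 0.181 FPKM in any library. The leukocyte markers summed to 17.0 to 24.7, nearly all from CD68 (mean 20.2), with PTPRC under 0.5 and CD3E and ITGAM not analysed here. The fibroblast list summed to 174.6 to 221.7, mostly from LUM (mean 172.7), with COL1A2 and PDGFRA not analysed here, and the red cell list to at most 3.31. The part of these markers in the results was not tested. In bulk RNA, fewer cells of a type and less RNA per cell cannot be told apart.

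Other gene models overlap some of the members. RPL18AP3, a ribosomal protein pseudogene on the strand of TXNRD1 and within its span, had 121.7 to 137.2 FPKM, and the share of reads given to each is an estimate. Another 6 overlapping models had at most 5.95 FPKM. The listed pseudogenes TXNP4, TXNP6, PRDX2P3, PRDX3P1 and PRDX3P2 had at most 0.714 FPKM, and the longest run that any of them shared with its parent transcript was 66 bases.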

How the data were processed

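The submitters' processing notes name the aligner HISAT2 2.2.1, StringTie 2.1.6, FastQC 0.10.1, DESeq2 1.22.2 and cutadapt, and the builds GRCh38 and hg38, without roles. The annotation release and the counting step are not given in the sources used here. Per the file headers, the authors deposited an FPKM and a count per gene and library. The deposited counts were treated as estimated counts, since the value 4 occurred 6798 times, more than 3 (4183) or 5 (2499). They were whole, so rounding changed nothing. Columns were matched to libraries by name, except that the columns G1 to G3 were taken as GIA libraries 1 to 3 by their numbers and as the only group left, since the labels do not spell out the short form G.

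The 13721 genes whose FPKM averaged 0.5 or more were fitted in R 4.3.3 with edgeR 4.0.16 (quasi-likelihood test, two-sided), using TMM scaling (factors 0.997 to 1.01) and no covariate. P-values were adjusted over all tested genes. Standard errors were derived from the F statistics and intervals by the t distribution. SD is over 3 libraries. Of 97 companion genes, 90 were tested. Alternatives were DESeq2 1.42.0, limma 3.58.1 on log2 FPKM, other scalings, filters and count scales, the replicate number as a block, and each library left out. The method was tested on simulated data. No library was a copy of another (chi-square per degree of freedom of counts divided by 4 at least 2.68). The genes named were the 10 members, 21 companions fixed by role (some items are not reported here), any companion past the threshold (none was), and pseudogenes or gene models overlapping a member. KRT18, CD68 and other markers come from the marker lists. The members and lists were chosen with earlier results of these data known. Sequences came from GENCODE 29 and RefSeq and were matched by symbol. Protein sequences were not used here.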

Additional observations from a re-analysis of the deposited data

How the results depend on the processing

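No member passed an adjusted p of 0.05 under any of the 16 alternatives. Over all genes 0 were called with DESeq2, limma, other scalings, filters or the divided counts, 0 to 5 with 1 library left out, and 3 with the replicate block (AL591806, C19orf71 and PDCD6-AHRR, named after their values were seen). Same-numbered libraries deviated together only weakly (correlations 0.0519, 0.0334 and 0.0966). DMSO libraries 1 and 3 correlated best with the GIA library of the same number, and DMSO library 2 with GIA library 1 (0.0349). The labels do not tie the numbers to a shared culture, so whether these libraries share more than a number is not known. Under the block 0 members were called.

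With the filter raised to 5 FPKM, the log2 fold changes of SESN2 (0.0055), RRM1 (0.0050) and GPX1 (0.0016) turned positive. With 1 library left out the sign turned for 3 members, with ranges of -0.024 to 0.025 for PRDX5, -0.065 to 0.050 for TXN2 and -0.19 to 0.034 for TXNRD1. It also turned for SRXN1 (-0.15 to 0.057), KEAP1 (-0.098 to 0.077), SLC7A11 (-0.13 to 0.047), GSR (-0.14 to 0.011), GCLM (-0.11 to 0.0043), TXNRD3 (-0.079 to 0.080), TXNIP (-0.024 to 0.076), SESN2 (-0.035 to 0.033), CAT (-0.045 to 0.046), GPX4 (-0.0018 to 0.067), GPX1 (-0.024 to 0.0085), SOD2 (-0.0064 to 0.040), NFE2L2 (-0.00040 to 0.039) and RRM1 (-0.015 to 0.0017). GIA library 2 was the library left out in 13 of the 25 sign turns. The cause was not tested.

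With 3 libraries a group, differences inside the intervals given remain compatible with the data, and the intervals are not a detection limit. All of these fold changes are close to 0, where a small shift turns the sign.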
